A study of Mus musculus with 10 samples.

Results

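The PDZ-LIM family is a set of 7 genes, Pdlim1, Pdlim2, Pdlim3, Pdlim4, Pdlim5, Pdlim7 and Ldb3, whose proteins carry an N-terminal PDZ domain and C-terminal LIM domains. The members were chosen by symbol, with earlier results of these data known. All 7 were found among the 23337 genes of the deposited table and passed the filter on low counts. Pdlim2 passed it through the knockout libraries, where it was high. Messenger RNA was sequenced from cardiomyocytes, the contractile cells of the heart, taken from mice on postnatal day 14, after collagenase perfusion and fluorescence-activated sorting. The mice carried floxed Actn2, a gene for the sarcomeric alpha-actinin that crosslinks actin at the Z-disc, which the recombinase Cre can delete. Animals with 2 such alleles (genotype Actn2-FF, 5 animals) are called knockout here, and animals with 1 such allele and a normal allele (Actn2-F+, 5 animals) are called heterozygote. Both groups received AAV9-cTNT-Cre on postnatal day 1, an adeno-associated virus in which the promoter of cardiac troponin T drives Cre in cardiomyocytes. The controls thus had Cre and a floxed allele too. The virus dose per gram was the same for all animals. The share of cardiomyocytes that the virus reached was not tested. Knockout therefore names the genotype and does not imply loss of Actn2 in every cell. No group without virus or without a floxed allele was analysed here. The series text calls the samples biological replicates.

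PDZ-LIM proteins tether signalling proteins to the actin cytoskeleton. Their PDZ domain binds alpha-actinin, which holds several of them at the Z-disc, the plate that anchors the thin filaments at each end of the sarcomere, while the LIM domains bind protein kinases and other partners. Pdlim1 to Pdlim4 belong to the ALP branch, named after the actinin-associated LIM protein, and Pdlim5, Pdlim7 and Ldb3 to the Enigma branch, which has more LIM domains. Ldb3, also called Cypher or ZASP, and Pdlim5, also called ENH, are the best known of them in the heart, where loss of Ldb3 disrupts the Z-disc. The comparison asks how the messages of this family stood after Cre was given to mice with 2 rather than 1 floxed Actn2 allele. Actn2 encodes an alpha-actinin, the protein that the PDZ-LIM proteins dock onto.

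Total counts were 8086656 to 25237696 per library, and members took 18324 to 58583 of them. Actn2 itself had a normalised read count of 1217 ± 55.3 CPM (reads scaled to a common library size) in the knockout and 3180.5 ± 358 CPM in the heterozygote (SD, n = 5 each), a log2 fold change of -1.39 (SE 0.0910, with an adjusted p of 3.48e-07 in edgeR), and all knockout libraries lay below all heterozygote libraries. The 8 cardiomyocyte markers summed to 97713 to 122702 CPM in the knockout and 105882 to 134501 CPM in the heterozygote, and these defining genes far exceeded the markers of every other cell type searched. Of these 8, 2 were called lower, Tnni3 and Atp2a2, and none higher. The log2 fold change was above zero for 1 of the 8, with a median of -0.096. The 8 endothelial markers summed to 279.7 to 461 CPM in the knockout and 423 to 637 CPM in the heterozygote, with 1 of 8 tested called lower. Their log2 fold change was above zero for 0 of 8, with a median of -0.42. The 8 fibroblast markers summed to 318 to 648 CPM in the knockout and 329.5 to 538 CPM in the heterozygote, with 3 of 7 tested log2 fold changes above zero. The 8 smooth muscle and pericyte markers summed to 434 to 480.1 CPM in the knockout and 670.3 to 1096 CPM in the heterozygote, and without Acta2, which immature cardiomyocytes also express, to 194 to 291 and 173 to 284 CPM. Of that list 2 genes, Acta2 and Tagln, were called lower and 1, Cspg4, higher, from 37.0 ± 6.39 to 132 ± 21.3 CPM (SD, n = 5 each), so the sums without Acta2 include that rise. The log2 fold change was above zero for 2 of the 8 and its median was -0.39. Immune markers summed to 6.34 to 9.24 CPM in the knockout and 10.4 to 25.6 CPM in the heterozygote, and red blood cell markers to 1.99 to 8.72 and 1.47 to 15.7 CPM. In such bulk samples, fewer cells of a type and less RNA per cell cannot be told apart.

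Every member of the family passed the test, but the members had been chosen with earlier results of these data known. The shares over all genes below are therefore a description and not a test of the family. In the knockout 6 members were higher and 1, Pdlim4, was lower (edgeR's quasi-likelihood test with Benjamini-Hochberg adjustment over 11870 genes, adjusted p below 0.05), where 18.9% of all tested genes were called, 10.2% higher and 8.64% lower. The median log2 fold change of the members was 0.50, beside 0.0023 for all tested genes. Knockout and heterozygote libraries did not overlap for 5 members, all of them higher in the knockout, where 8.41% of tested genes showed that pattern, 6.32% were lower without overlap, and 14.7% did either. Pdlim2 is among the 6 and among the 5, and it met the filter on low counts through the knockout libraries. Its place in these counts is thus no independent support. Leaving out any of the 10 animals in turn gave 6 and 1 again. The members differed in size of change: Pdlim3, Pdlim2 and Pdlim7 rose by more than 2-fold, while Pdlim1, Pdlim5 and Ldb3 rose by less.

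**Figure D1:**
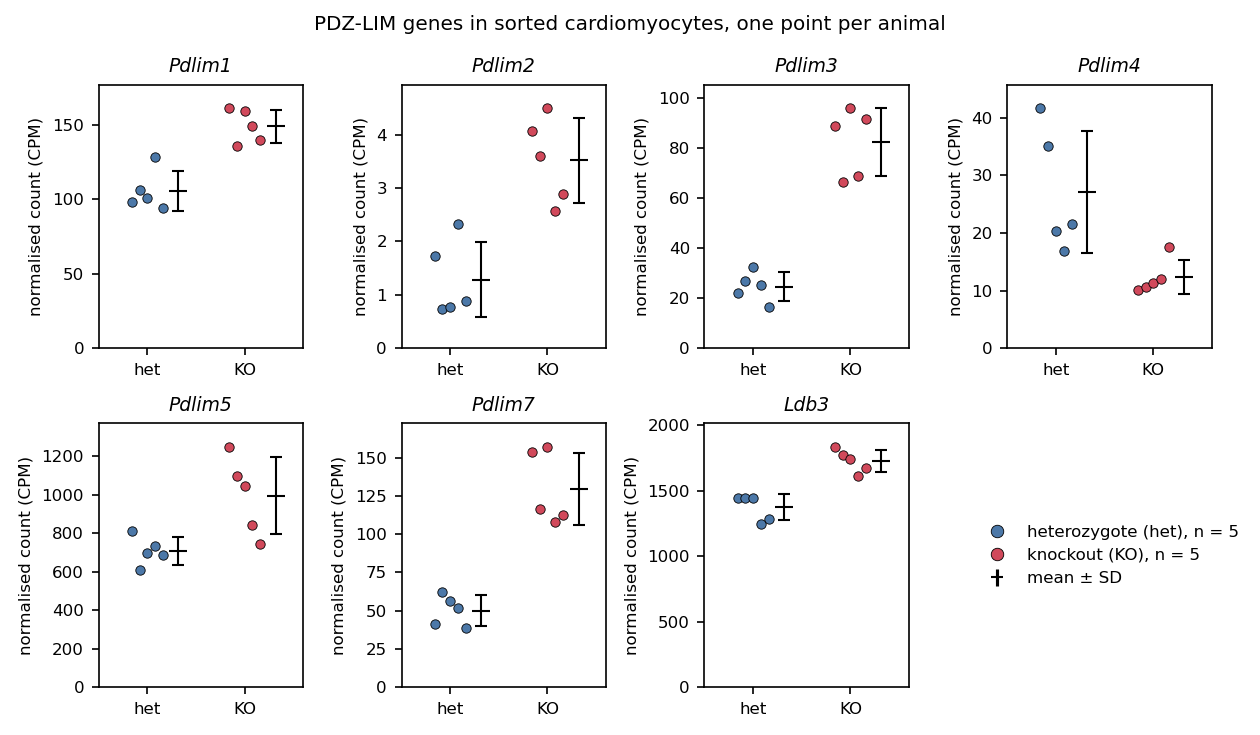
Normalised read count (CPM, linear axes from 0) of the 7 PDZ-LIM genes in each animal, heterozygote (het) and knockout (KO), with the mean and SD of 5 animals beside the points. The groups are apart for Pdlim1, Pdlim2, Pdlim3, Pdlim7 and Ldb3, and overlap for Pdlim4 and Pdlim5.

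Promoter sequences are shown for the member that rose most, Pdlim3, and for the most abundant member, Ldb3, since they hold the only matches among the members' windows to 3 motifs of muscle promoters that were searched. These were the CArG box, to which the serum response factor binds, the MEF2 site, and the M-CAT element CATTCC, to which TEAD factors bind, each on both strands. The windows are the 250 bases before a RefSeq start site (GRCm38.p6, the assembly of mm10), written 5′ to 3′ on the strand of the gene, with matches in capitals. No match overlapped another. The Pdlim3 window lies at chr8:45885237-45885486 on the plus strand and the Ldb3 window at chr14:34588682-34588931 on the minus strand.
Pdlim3: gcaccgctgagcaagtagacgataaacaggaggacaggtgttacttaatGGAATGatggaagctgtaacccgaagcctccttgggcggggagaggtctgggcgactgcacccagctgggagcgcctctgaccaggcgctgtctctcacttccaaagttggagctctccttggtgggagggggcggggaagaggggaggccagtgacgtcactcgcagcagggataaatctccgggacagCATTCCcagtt
Ldb3: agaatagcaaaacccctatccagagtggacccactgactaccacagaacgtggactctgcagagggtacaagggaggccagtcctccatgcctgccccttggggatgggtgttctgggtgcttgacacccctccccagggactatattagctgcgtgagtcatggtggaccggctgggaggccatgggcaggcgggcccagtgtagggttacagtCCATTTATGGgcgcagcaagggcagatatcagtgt
Pdlim3 held 2 M-CAT elements, a reverse one that begins 201 bases and a forward one that begins 11 bases before the RefSeq start. The GENCODE annotation starts Pdlim3 at chr8:45885461, so by it the forward match, at chr8:45885476-45885481, lies inside the gene. Of all 32841 windows of this length in the table, 12.6% held at least 1. Ldb3 held a CArG box that begins 35 bases before the start, a motif present in 1.47% of all windows. Another Ldb3 start lies downstream, and the same box begins 109 bases before it. No member window held a MEF2 site, which 2.92% of all windows did. The table held windows for 6 of the 7 members, Pdlim2 being the exception, and a match describes letters in these windows and not binding.

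Among the ALP genes, Pdlim3 had the largest change of the family. It encodes ALP itself, a protein of skeletal muscle Z-discs and of heart, and lies at chr8:45885485-45919546 on the plus strand. Its normalised counts were 22.3, 26.8, 32.4, 25.3 and 16.5 CPM in heterozygotes 1 to 5 and 88.9, 66.4, 95.9, 68.97 and 91.6 CPM in knockouts 1 to 5. The lowest knockout stood 2.05-fold above the highest heterozygote, the widest gap in the family. The means were 24.7 ± 5.85 CPM in the heterozygote and 82.4 ± 13.6 CPM in the knockout (SD, n = 5 each), a log2 fold change of 1.75 (SE 0.164, with an adjusted p of 7.99e-06 in edgeR). By p-value Pdlim3 ranked 56 among the tested genes, and the size of its change exceeded that of 98.7% of them.

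Pdlim1, also called CLP36 or Elfin, binds alpha-actinin on stress fibres and in muscle, and lies at chr19:40222239-40271616 on the minus strand. It had 98.2, 106, 101, 128 and 94.2 CPM in heterozygotes 1 to 5 and 161, 135, 159, 149 and 139.9 CPM in knockouts 1 to 5. Every knockout exceeded every heterozygote, although heterozygote 4 came near the lowest knockout. The log2 fold change was 0.50 (SE 0.101, with an adjusted p of 0.00360 in edgeR), from a mean of 105.5 ± 13.4 to 149 ± 11.2 CPM (SD, n = 5 each).

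Pdlim2, also called Mystique or SLIM, carries transcription factors to degradation in immune cells, and lies at chr14:70164218-70177672 on the minus strand. It was the scarcest member, with 6 to 51 reads per library. The normalised counts were 1.72, 0.737, 0.769, 2.33 and 0.886 CPM in heterozygotes 1 to 5 and 4.06, 3.59, 4.49, 2.57 and 2.89 CPM in knockouts 1 to 5. The groups did not overlap, but heterozygote 4 and knockout 4 lay close together. Pdlim2 rose by 1.39 on the log2 scale (SE 0.331, with an adjusted p of 0.00903 in edgeR), the widest standard error in the family. Immune markers moved the other way, and their part in the value was not tested.

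Pdlim4, also called RIL, binds alpha-actinin and actin filaments, and lies at chr11:54054928-54069017 on the minus strand. It was the only member that fell. Heterozygotes 1 to 5 had 41.6, 35.1, 20.4, 16.98 and 21.5 CPM and knockouts 1 to 5 had 10.2, 10.7, 11.4, 12.1 and 17.5 CPM. The groups overlapped, because knockout 5 stood just above heterozygote 4, and heterozygotes 1 and 2 lay well above the other 3. Pdlim4 fell by 1.13 on the log2 scale (SE 0.240, with an adjusted p of 0.00460 in edgeR), and without heterozygote 1 the Pdlim4 log2 fold change was -0.91 (edgeR adjusted p 0.0126).

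Of the Enigma genes, Pdlim7 changed most. It encodes Enigma, also called LMP-1, which binds tropomyosin and alpha-actinin and promotes bone formation, and it lies at chr13:55497487-55513439 on the minus strand. Heterozygotes 1 to 5 had 41.3, 62.5, 56.1, 51.7 and 38.9 CPM and knockouts 1 to 5 had 153, 116, 157, 108 and 113 CPM. The lowest knockout was 1.73-fold above the highest heterozygote. The log2 fold change was 1.37 (SE 0.151, with an adjusted p of 2.92e-05 in edgeR), a 2.59-fold rise. The GENCODE annotation, which was not the one used for counting, places a microRNA gene, Mir6945, over its exons, while in the annotation used for counting Pdlim7 shared exon sequence with no other gene.

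Ldb3 recruits protein kinase C and calcineurin partners to the Z-disc, and lies at chr14:34526699-34588681 on the minus strand. It was the most abundant member, with 1446, 1445, 1441, 1248 and 1281 CPM in heterozygotes 1 to 5 and 1829, 1775, 1738, 1614 and 1676 CPM in knockouts 1 to 5. The groups were apart but the change was small, 1.26-fold, at 0.33 on the log2 scale (SE 0.0794, with an adjusted p of 0.00959 in edgeR). With the endothelial markers as a covariate the log2 fold change was 0.28 (SE 0.114) and the call was lost (edgeR adjusted p 0.174). The endothelial markers themselves had negative log2 fold changes, so this covariate and genotype are partly confounded.

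Pdlim5 encodes ENH, which binds protein kinase C isoforms through its LIM domains, and lies at chr3:142239585-142395696 on the minus strand. Its counts were 809, 610.4, 697, 734 and 689 CPM in heterozygotes 1 to 5 and 1245, 1097, 1047, 844 and 746 CPM in knockouts 1 to 5. The groups overlapped, since knockout 5 lay below heterozygote 1. Pdlim5 rose by 0.49 on the log2 scale (SE 0.131, with an adjusted p of 0.0168 in edgeR). With the endothelial covariate the value was 0.53 and its SE wider, at 0.185, and the call was lost (edgeR adjusted p 0.107). GENCODE lists 12 coding transcripts of Pdlim5 and 7 of Ldb3, which counts per gene cannot separate.

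Levels were compared between genes as CPM per kilobase of exon. In the heterozygote the order was Ldb3 at 228 ± 16.5, Pdlim5 at 104 ± 10.6, Pdlim1 at 70.1 ± 8.93, Pdlim4 at 22.9 ± 8.99, Pdlim7 at 16.8 ± 3.33, Pdlim3 at 15.6 ± 3.71 and Pdlim2 at 0.781 ± 0.430 CPM per kilobase (SD, n = 5). The ranges of Pdlim4 and Pdlim7 overlapped, as did those of Pdlim7 and Pdlim3, and no other neighbours did. In the knockout Ldb3, at 287 ± 14.0, Pdlim5, at 146 ± 29.4, and Pdlim1, at 98.8 ± 7.45, kept the same places. Pdlim3, at 52.2 ± 8.64, and Pdlim7, at 43.3 ± 7.89, came next, with overlapping ranges but Pdlim3 the higher in 5 of 5 animals. Pdlim4, at 10.5 ± 2.504, stood below both, and Pdlim2, at 2.13 ± 0.483 CPM per kilobase, remained last. Pdlim4 thus went from rank 4 to rank 6.

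**Figure D2:**
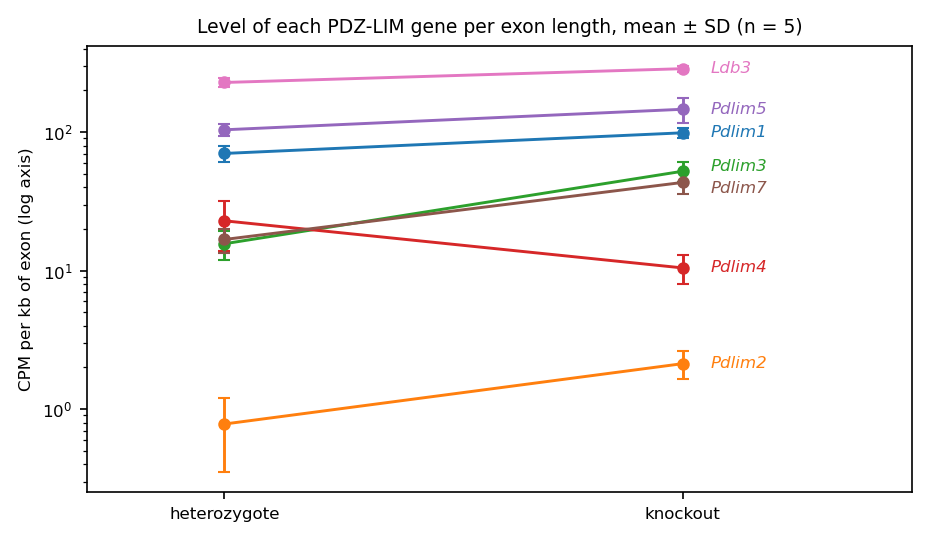
Level of each PDZ-LIM gene per exon length (CPM per kilobase, log axis) in the heterozygote and the knockout. Points are means and bars the SD of 5 animals, and a line joins the means of a gene. Ldb3 is highest and Pdlim2 lowest in both groups, and Pdlim4 lies below Pdlim3 and Pdlim7 in the knockout.

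Summed per exon length, the family stood at 458 ± 26.0 CPM per kilobase in the heterozygote and 640.2 ± 54.4 in the knockout (SD, n = 5 each), and the ranges, 419 to 489 and 583 to 712, did not overlap. The make-up of that sum also differed. Pdlim3 made up 3.40 ± 0.737% of it in the heterozygote and 8.16 ± 1.26% in the knockout, and Pdlim7 3.66 ± 0.674% and 6.73 ± 0.731%, both without overlap. Pdlim4 made up 4.95 ± 1.73% and 1.66 ± 0.506%, again without overlap. These differences depend on the division by exon length: with it they were 4.76 percentage points for Pdlim3, 3.07 for Pdlim7 and -3.29 for Pdlim4, and without it 1.597, 1.97 and -0.765. The share of Ldb3 was 49.8 ± 2.21% in the heterozygote and 45.0 ± 2.02% in the knockout, with overlapping ranges. Pdlim5 held 22.7 ± 2.22% and 22.7 ± 2.97%, and Pdlim1 15.3 ± 2.13% and 15.5 ± 1.05%. Measured against Ldb3 within each library, the log2 ratio was higher in the knockout by 1.43 for Pdlim3 and 1.04 for Pdlim7 and lower for Pdlim4 (difference -1.41), each without overlap, while those of Pdlim1, at 0.17, Pdlim5, at 0.14, and Pdlim2, at 1.25, overlapped.

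**Figure D3:**
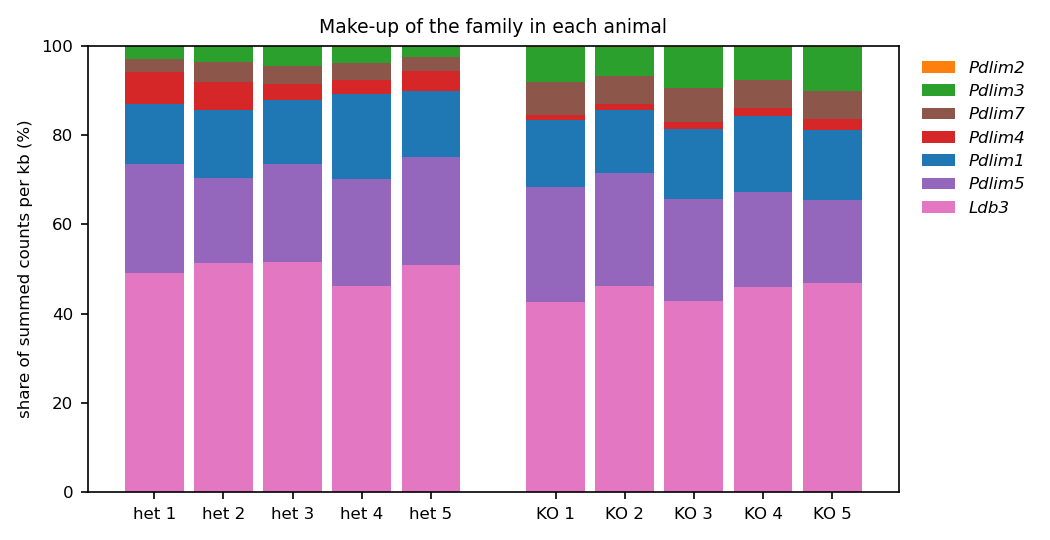
Share of each gene in the summed CPM per kilobase of the 7 PDZ-LIM genes (percent), as a stacked bar for each of the 5 heterozygote (het) and 5 knockout (KO) animals, with Pdlim2 too small to see. Pdlim3 and Pdlim7 hold larger shares and Pdlim4 a smaller share in every knockout than in any heterozygote.

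The family was read beside 4 further lists, of alpha-actinins, Z-disc structural genes, other genes with LIM domains, and kinases. The other LIM genes were listed for their shared domain and not as binding partners. Of the 3 alpha-actinin genes tested, Actn2 fell and Actn4, a non-muscle alpha-actinin, rose by 0.38 on the log2 scale, from 191 ± 33.8 to 249 ± 10.9 CPM (SE 0.117, with an adjusted p of 0.0340 in edgeR). Actn4 lost its call in 6 of the 10 fits without an animal, with log2 fold changes of 0.29 to 0.39 there (those without heterozygote 1 or 5, or knockout 1, 2, 3 or 5), and with Y-linked genes as a covariate the Actn4 log2 fold change was 0.36 and not called (edgeR adjusted p 0.0524). Actn4 shares exon sequence with Capn12. Actn1 had a log2 fold change of 0.13 (edgeR adjusted p 0.533).

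Of 21 Z-disc structural genes 19 were tested, and 6 rose and 13 were not called by edgeR (31.6% called, median log2 fold change 0.13). Of all tested genes 18.9% were called, 10.2% higher and 8.64% lower, and the median was 0.0023. Flnc, the muscle filamin that crosslinks actin at the Z-disc, rose from 274 ± 67.3 to 684 ± 99.0 CPM (SD, n = 5 each), or 1.32 on the log2 scale (edgeR adjusted p 6.00e-05). Synpo2l, an actin-bundling protein of the Z-disc, rose by 1.20 (edgeR adjusted p 2.66e-05). Tcap, which caps titin, rose by 0.57 (edgeR adjusted p 0.0259), and lost the call without heterozygote 3 or 5 or knockout 3, with values of 0.55, 0.55 and 0.52. The Tcap log2 fold change also lost its call with the smooth muscle and pericyte covariate, at 0.51 (edgeR adjusted p 0.0810), and with the endothelial covariate, at 0.37 (edgeR adjusted p 0.384). With the latter 2 genes of the list were called. The other 3 called were Csrp3, Palld and Bag3. Csrp3 is also on the list of other LIM genes and counts as a rise in both.

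Of 40 other genes with LIM domains 39 were tested, and 10 rose, 3 fell and 26 were not called (33.3% called, median log2 fold change 0.17). For all tested genes the share called was 18.9% and the median 0.0023. Fhl1, a stretch-responsive protein of the sarcomere, rose by 1.64 on the log2 scale (SE 0.218, with an adjusted p of 0.000147 in edgeR), and Zyx, zyxin of focal adhesions, by 1.11 (SE 0.152, with an adjusted p of 0.000176 in edgeR). Tgfb1i1, the adhesion protein Hic-5, rose by 0.84 (edgeR adjusted p 0.0203), and by 0.72 without knockout 3, where the call was lost (edgeR adjusted p 0.0612). Fblim1, migfilin, fell by 0.50 on the log2 scale (edgeR adjusted p 0.00368). Lims2, a partner of integrin-linked kinase that shares exon sequence with Gpr17, fell by 0.59 (edgeR adjusted p 0.0295), and its call was lost without heterozygote 3 or 4 or knockout 2, 3 or 5, where the Lims2 log2 fold change was -0.60 to -0.45. The Lims2 log2 fold change also lost its call with the endothelial covariate, at -0.32 (edgeR adjusted p 0.481), and with library totals alone, at -0.51 (edgeR adjusted p 0.0614). The list had 8 called genes without knockout 3 and 5 with the endothelial covariate.

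Of 14 genes on a list of kinases bound by PDZ-LIM proteins 11 were tested, and 3 rose, 1 fell and 7 were not called (36.4% called, median log2 fold change 0.18). For all tested genes the share called was 18.9% and the median 0.0023. The list holds related isoforms, and binding of each was not tested. All the kinases called were protein kinase C isoforms, as were most of those tested, and the isoforms Prkce and Prkch were not called. Prkci rose from 28.0 ± 4.51 to 60.9 ± 8.21 CPM (SD, n = 5 each), or 1.12 on the log2 scale (edgeR adjusted p 3.85e-05), Prkcd by 0.95 (edgeR adjusted p 0.000869) and Prkca by 0.55 (edgeR adjusted p 0.00109). Prkcq, listed at 0.774 to 1.93 CPM in the group means, fell by 1.29 (edgeR adjusted p 0.0216), and lost the call without heterozygote 3 or knockout 1, 3 or 5, with log2 fold changes of -1.22 to -1.06. With the endothelial covariate the Prkcq log2 fold change was -1.02 and was not called (edgeR adjusted p 0.231).

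**Figure D4:**
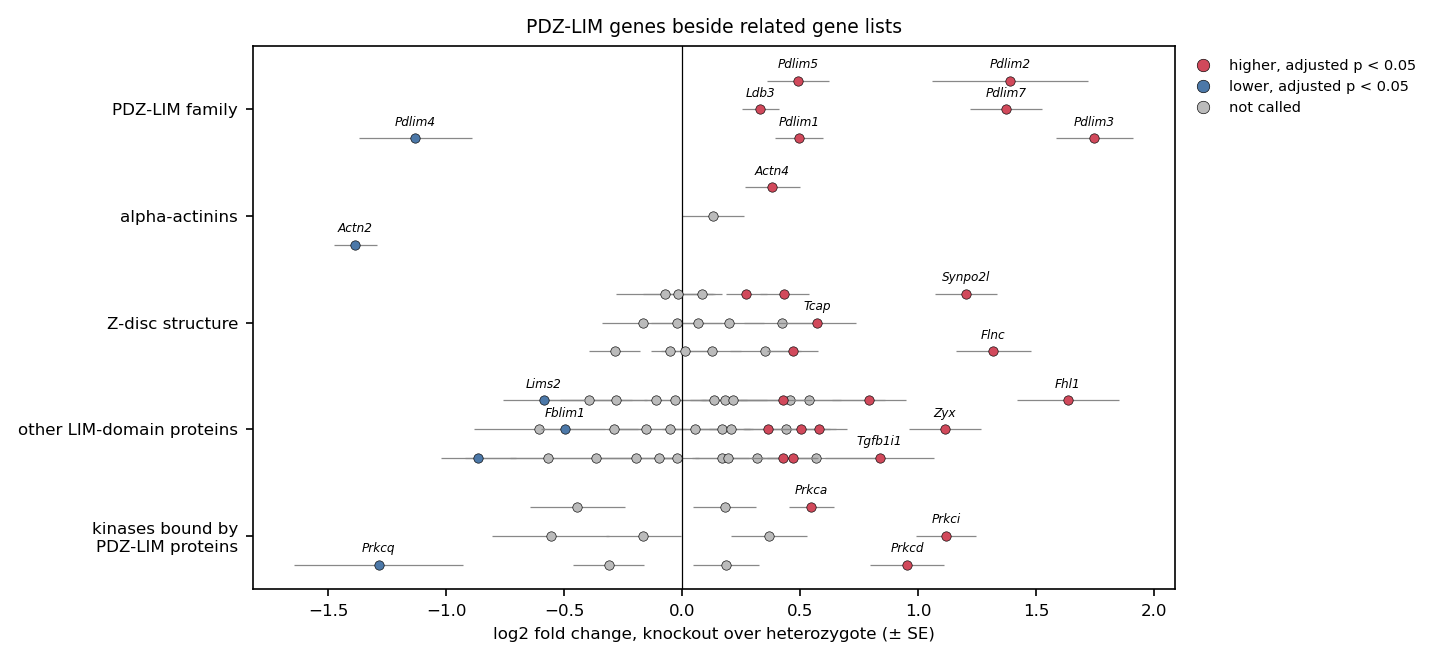
Log2 fold change, knockout minus heterozygote, ± SE of each tested gene of the PDZ-LIM family and of the 4 further lists, with red for genes called higher, blue for lower and grey for genes not called. All 7 PDZ-LIM genes are called, beside 2 of 3 alpha-actinins, 6 of 19 Z-disc genes, 13 of 39 other LIM genes and 4 of 11 kinases. Of all tested genes 18.9% were called.

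The tested genes next to members on their chromosomes were listed by position, and they include Sorbs2 and Sorbs3, of a family of sorbin and SH3 domain adaptors that link actin to adhesions and to the Z-disc. These pairs were chosen after their values were seen. Sorbs3 lies 2.80 kb from Pdlim2 and Sorbs2 57.6 kb from Pdlim3. Sorbs2 had 479, 328, 419, 454 and 405 CPM in heterozygotes 1 to 5 and 1409, 1432, 1465, 1186 and 1250.4 CPM in knockouts 1 to 5, and the groups were far apart. Its log2 fold change was 1.69 (SE 0.110, with an adjusted p of 3.48e-07 in edgeR), beside 1.75 for Pdlim3. Sorbs3 rose by 1.38 (SE 0.242, with an adjusted p of 0.00122 in edgeR), beside 1.39 for Pdlim2. Both Sorbs2 and Sorbs3 were higher in every knockout than in any heterozygote. By nearness of pattern over the 10 libraries, as described below, Sorbs2 ranked only 31 for Pdlim3 and Sorbs3 only 82 for Pdlim2. Next to Ldb3, Bmpr1a was called higher, at 0.42 on the log2 scale (edgeR adjusted p 0.0274), and Opn4, on the other side, was called lower, at -0.81 (edgeR adjusted p 0.0345). The flanking genes of Pdlim4, Pdlim5 and Pdlim7 were not called, and those of Pdlim7, Dbn1 and Ddx41, had log2 fold changes of -0.02 and -0.06 beside 1.37 for Pdlim7. Of the 6 members called higher, 4 had a flanking tested gene called higher, and not all of these flanking genes are named here. Of all genes called higher, 28.4% had one, and of all tested genes 19.3%.

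**Figure D5:**
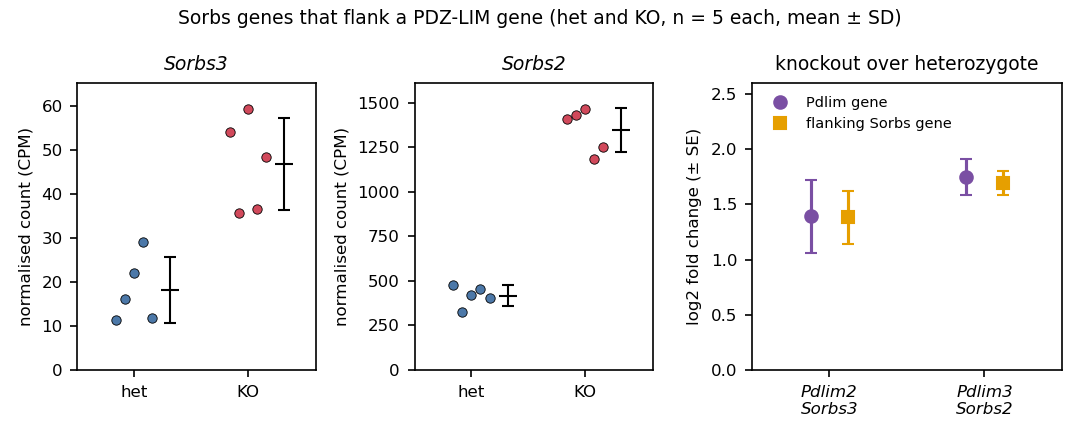
Normalised read count (CPM, linear axes from 0) of Sorbs3 and Sorbs2 in each heterozygote (het) and knockout (KO) animal with the mean and SD (n = 5 each), and, at the right, the log2 fold change ± SE of each Sorbs gene beside its neighbouring Pdlim gene. Every knockout point lies above every heterozygote point, and the bars of each pair overlap.

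The genes whose pattern over the 10 libraries was nearest to that of a member were found by the root mean square difference of centred log2 CPM. Centring was over both groups, so this distance includes the genotype difference. Genes with a like log2 fold change therefore lie near one another, and the distances largely restate the fold changes. For Pdlim3 the nearest genes were Clu, Wnt5b and Tnfrsf12a, at 0.187, 0.229 and 0.233. Tnfrsf12a shares exon sequence with Hcfc1r1. For Pdlim7 they were Fam105b, Nudt18 and Ptgds, at 0.153, 0.177 and 0.178. For Pdlim4 the nearest genes were Plin5, Naaa and Selenbp1, at 0.299, 0.301 and 0.302, and for Ldb3 Usp19, Cmas and Snx19, at 0.0507, 0.0523 and 0.0537. Nearest to Pdlim1 were Sparc, Tacc1 and Hn1, to Pdlim2 Chrnb1, Ptplad2 and Zfp37, and to Pdlim5 Prrx1, Slc35f5 and Kank1. Within the family, the nearest pair was Pdlim1 and Ldb3, at 0.188, and the farthest was Pdlim3 and Pdlim4, at 1.49.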

How the data were processed

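Whole-number read counts per gene were deposited by the authors in 1 table of 14 count columns, of which the 10 that match the samples were used and 4 were not used. Per the file headers, counts came from featureCounts 1.5.1 with a UCSC mm10 annotation, run with no option beyond threads and files, so without strand. The submitters' processing notes name STAR 2.5.3a and Subread 1.5.2. The deposited exon length per gene was used to divide CPM.

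Counts were fitted with edgeR 4.0.16 in R 4.3.3 (TMM scaling, filterByExpr with a minimum count of 10, quasi-likelihood test, knockout against heterozygote, no covariate), with Benjamini-Hochberg adjustment over 11870 genes and a threshold of 0.05. CPM used TMM-scaled totals of tested genes, and log2 CPM a prior count of 1. DESeq2 1.42.0, limma 3.58.1 (voom), other scalings and filters, marker covariates, a replicate block and leaving out each animal were alternatives. The fit was tested on simulated data with 2-fold and 4-fold changes. It recovered 79% and 98% of them, and 5.91% of its calls were false. Smaller changes, such as those of Pdlim1, Pdlim5 and Ldb3, were not simulated. Replicates differed by 10.8 to 37.5 in chi-square per degree of freedom over 20 pairs, so no library was a duplicate.

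Genes named are the members, Actn2, the 3 largest called rises and falls of each list, and the 3 nearest genes by pattern, except that some items are not reported here. Members and lists were chosen with earlier results of these data known. Genes flanking members, single marker genes, Prkce and Prkch, and the Csrp3, Palld and Bag3 calls, were named after their values were seen. Promoter windows came from RefSeq (GRCm38.p6), and transcript numbers, the microRNA overlap and a second Pdlim3 start from GENCODE.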

Additional observations from a re-analysis of the deposited data

How the results depend on the processing

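No called log2 fold change of a named gene changed sign. The share differences of Pdlim1 and Pdlim5, whose groups overlap, did: 0.140 percentage points for Pdlim1 (-0.355 to 1.04 with an animal left out) and -0.022 for Pdlim5 (-0.917 to 1.04, and 0.947 without division by length). All 7 members kept their calls with RLE and upper-quartile scaling, library totals, no filter, DESeq2, limma voom, the smooth muscle and Y-linked covariates and each animal left out. With a minimum mean of 5 CPM, Pdlim2 was not tested. With the endothelial covariate Pdlim5, at 0.53 (edgeR adjusted p 0.107), and Ldb3, at 0.28 (edgeR adjusted p 0.174), lost theirs, and calls were 910 over all genes, 2 in the Z-disc list and 5 in the other LIM list; the cause was not tested. The alpha-actinin list had 1 call with the Y-linked covariate and 1 to 2 with an animal left out, and the other LIM list 8 to 15. Calls over all genes were 1699 (without knockout 3) to 2258 with an animal left out. Library totals alone moved the median log2 fold change of all genes to 0.084 and the higher share of calls from 54.3% to 68.9%, and upper-quartile scaling to -0.025 and 48.2%, where lower calls outnumbered higher ones. With counts not divided by length, the share differences were 0.0563 percentage points for Pdlim2 (0.160 with it), 1.597 for Pdlim3 (4.76), -0.765 for Pdlim4 (-3.29) and 1.97 for Pdlim7 (3.07). Deviations of same-numbered animals correlated at 0.112, -0.012, -0.060, 0.185 and 0.141 for numbers 1 to 5, so not every pair was above 0.1, and 2 of 5 numbers correlated best with their own; the numbers were not taken as pairs. With the replicate block 2182 genes were called, log2 fold changes were 0.50 for Pdlim1, 1.48 for Pdlim2, 1.76 for Pdlim3, -1.07 for Pdlim4, 0.47 for Pdlim5, 1.38 for Pdlim7 and 0.33 for Ldb3, and no member call changed. Depth limits Pdlim2, with 6 to 51 reads per library.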
